A study of Drosophila melanogaster with 12 samples.

Results

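The cytochrome P450 family was followed in the heads of adult fruit flies (Drosophila melanogaster) that lack a working circadian clock. Members were the probe sets whose annotation gave exactly 1 gene symbol starting with Cyp and a digit. A gene with several such probe sets was represented by the one with the highest mean over all arrays. The rule matched 87 probe sets and 83 genes, of the 10843 genes named on the array. Of these, 81 were P450 genes. The other 2, Cyp1 (CG9916) and Cyp40 (CG8336), share the letters but are cyclophilins, which are prolyl isomerases and not P450 enzymes. They are described apart and are not in any count of P450 genes. The RefSeq gene table lists 85 genes with a P450 symbol of this form, so 81 of 85 were measured by a probe set of their own.

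All flies were y w; tim01: they carried the body and eye colour mutations yellow and white, and tim01, a mutation that removes the function of the clock gene timeless. They were kept for 3 days in cycles of 12 h of light and 12 h of darkness. Collection then ran every 4 h over 1 more such day (LD, times ZT2 to ZT22) and over the next day in constant darkness (DD, times CT2 to CT22). Each of the 12 arrays held RNA from roughly 100 to 200 sieved heads collected at 1 time, so there was 1 array per time. The arrays formed 4 groups of 3. LD light held ZT2, ZT6 and ZT10, and LD dark held ZT14, ZT18 and ZT22. DD subjective day held CT2, CT6 and CT10, hours when lights would have been on. DD subjective night held CT14, CT18 and CT22. The sources used here give neither the age nor the sex of the flies. No flies with a working clock were analysed here.

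P450 enzymes are heme proteins that insert an atom of oxygen into small molecules. Microsomal P450s take their electrons from cytochrome P450 reductase, at times with cytochrome b5, and mitochondrial P450s take them from a ferredoxin. Insect P450s make and break down the moulting hormone ecdysone, synthesise cuticular hydrocarbons and clear plant toxins and insecticides. In the fly head they are found in the fat body, sense organs, cuticle-forming cells and nervous system. By sequence they fall into 4 clans, and the measured genes divided into 37 of the CYP3 clan, 32 of the CYP4 clan, 8 of the mitochondrial clan and 4 of the CYP2 clan.

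Values are on the log2 scale throughout, so a difference of 1 is a doubling. Array medians lay between 4.0 and 4.1, and Pearson correlations between arrays across probe sets lay between 0.985 and 0.996. Of the 10 head markers listed, 6 were measured, and 5 of those had a mean above the median. All 10 listed markers of the head fat body were measured and had means above the median. Transcripts of the midgut and of the male reproductive tract, which a clean head sample should hold little of, varied widely among the arrays. The summed level of 22 of 27 listed midgut genes ran from 10.51 to 11.88 in LD light and from 10.57 to 12.53 in LD dark. It ran from 10.50 to 12.14 in DD subjective day and from 13.13 to 13.44 in DD subjective night. For 22 of 26 listed male reproductive genes these sums ran from 11.41 to 11.56, 11.42 to 11.87, 11.39 to 11.68 and 11.88 to 12.05 in the same order. For 12 of 16 listed thorax muscle genes they ran from 10.66 to 10.88, 10.83 to 10.97, 10.67 to 11.02 and 11.07 to 11.25. In all 3 lists every subjective-night array lay above every array of the other groups. A body-tissue score was therefore kept beside the results. It averages 3 lists (midgut, thorax muscle, male reproductive tract), each taken as the median of its genes' deviations from their own means. The score was −0.65, −0.17 and −0.39 in LD light and −0.60, 0.08 and 0.29 in LD dark. It was −0.69, −0.50 and 0.15 in DD subjective day and 0.75, 0.90 and 0.65 in DD subjective night. The 3 subjective-night arrays were the highest of all. In such bulk samples, fewer cells of a type and less RNA per cell cannot be told apart.

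Most P450 genes, like most probe sets, held a nearly constant level over both days. The median range of a P450 gene, its highest minus its lowest array, was 0.38, against 0.34 over all 13966 probe sets. The range was under 0.5 for 65 of the 81 genes, or 80.2%, against 86.0% of all probe sets. It was over 1 for 1 gene, or 1.23%, against 1.51% of all probe sets. That gene was Cyp4g1, with a range of 5.85. The next largest ranges were 0.93 for Cyp6a8, 0.80 for Cyp4d21, 0.71 for Cyp28c1, 0.69 for Cyp6d5 and 0.67 for Cyp6w1. They were followed by Cyp4p1 at 0.63, Cyp6a9 at 0.62, and Cyp6a23 and Cyp6g1 at 0.59 each. The clans had like medians: 0.38 in the mitochondrial clan, 0.34 in CYP2, 0.39 in CYP3 and 0.38 in CYP4. The smallest range, 0.14, belonged to Cyp6a2, a gene linked to insecticide resistance.

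**Figure D1:**
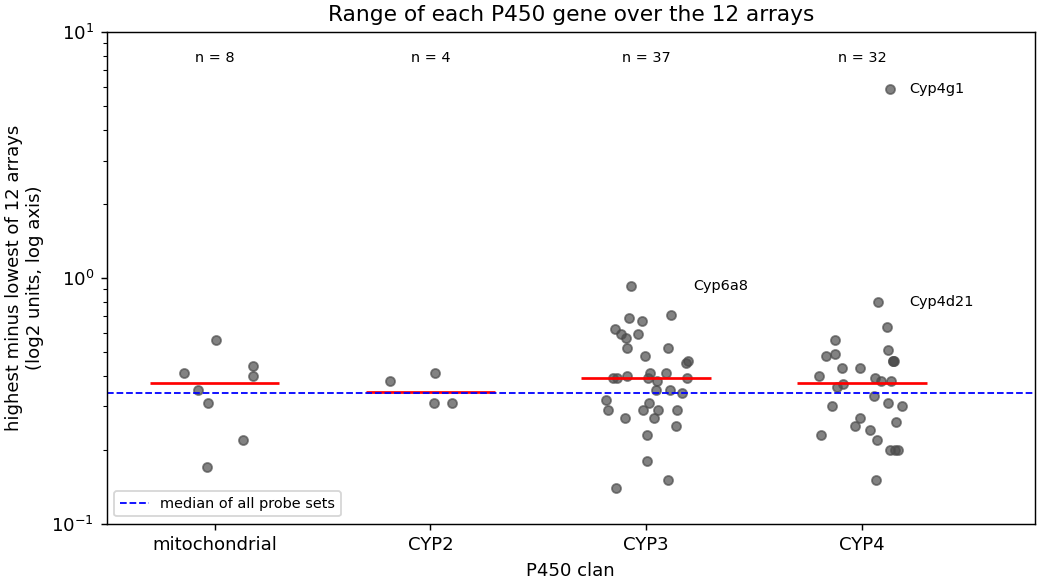
Range of each of the 81 P450 genes (highest minus lowest of 12 arrays, log2 units on a log axis) by clan, with red lines at clan medians and a dashed blue line at the median of all probe sets. Cyp4g1 stands at 5.85 and every other P450 gene at or below 0.93.

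Of the 81 genes, 23 were above the upper quartile of their array on every array, 13 were below the lower quartile on every array, and 45 lay between. A probe set's level also depends on how well its probes bind, so these places describe the array and do not rank the genes by abundance. The 10 highest means were those of Cyp28d1 (9.52), Cyp6d5 (9.21), Cyp4e2 (8.30), Cyp9b2 (8.28), Cyp4g1 (7.98), Cyp9f2 (7.82), Cyp6w1 (7.74), Cyp4g15 (7.53), Cyp313a1 (7.53) and Cyp12a4 (6.78). The 5 lowest were Cyp313a2 (1.77), Cyp316a1 (1.87), Cyp6a17 (1.89), Cyp313a5 (1.90) and Cyp310a1 (2.08). Small differences at such low levels may lie within probe background, and whether these transcripts were present was not tested. The 13 low-lying genes had a median range of 0.38 and a highest of 0.46, so all 13 were under 0.5. The 23 high-lying genes had a median range of 0.39 and a highest of 0.93, and 15 of them, or 65.2%, were under 0.5. Shares for all probe sets of like level are not given here, so nothing particular to P450 genes is read from these counts.

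**Figure D2:**
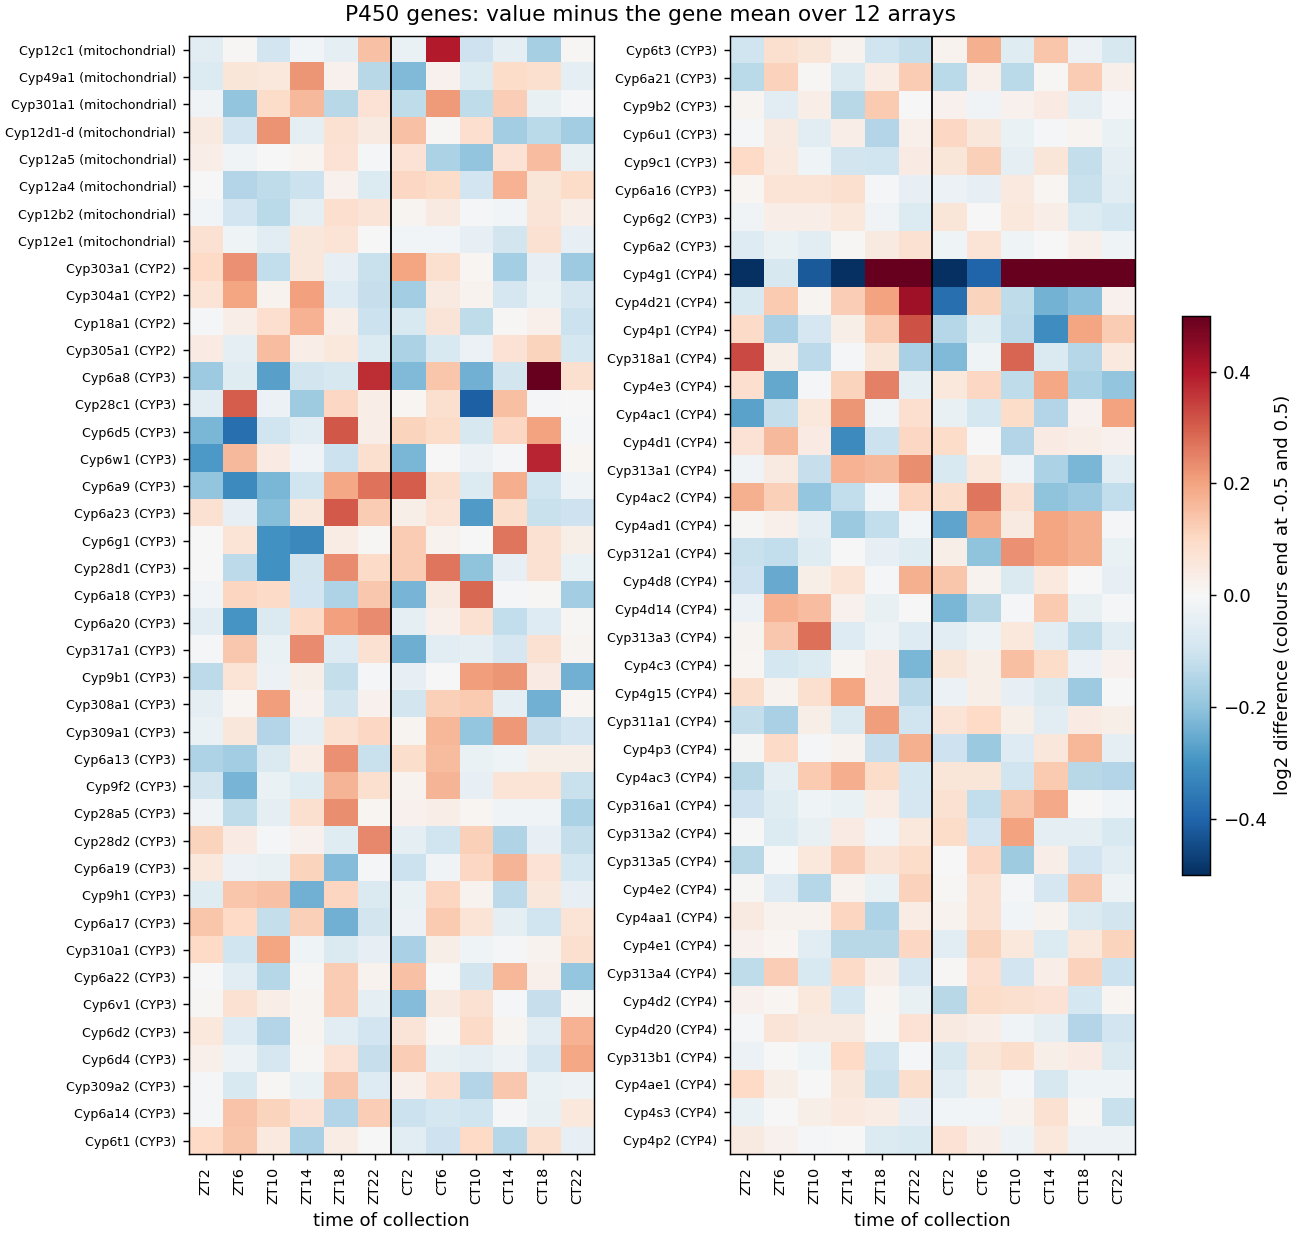
Each P450 gene (rows, clan in brackets) on each array (columns, LD day then DD day), as the log2 value minus the gene's mean over 12 arrays. Colours end at −0.5 and 0.5, which 65 genes with a range under 0.5 never reach, while Cyp4g1 passes both ends.

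Cyp4g1 (CG3972) makes the last step of cuticular hydrocarbon synthesis, the waxes that keep a fly from drying out, and is known as a gene of the oenocytes of the abdomen. In LD light its value was 5.04 at ZT2, 7.90 at ZT6 and 7.56 at ZT10. In LD dark it was 4.71 at ZT14, 8.76 at ZT18 and 9.55 at ZT22. In DD subjective day it was 4.67 at CT2, 7.58 at CT6 and 8.80 at CT10. In DD subjective night it was 10.52 at CT14, 10.43 at CT18 and 10.23 at CT22. The lowest arrays were ZT2, ZT14 and CT2, and the 3 subjective-night arrays lay above all others. Between the lowest and the highest array the signal differed 57.6-fold, the 4th largest range of the 13966 probe sets. The group means were 6.83 ± 1.56 in LD light, 7.67 ± 2.59 in LD dark, 7.02 ± 2.13 in DD subjective day and 10.39 ± 0.15 in DD subjective night (SD, n = 3 each). The spread within the first 3 groups was therefore more than 10 times that within the fourth.

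**Figure D3:**
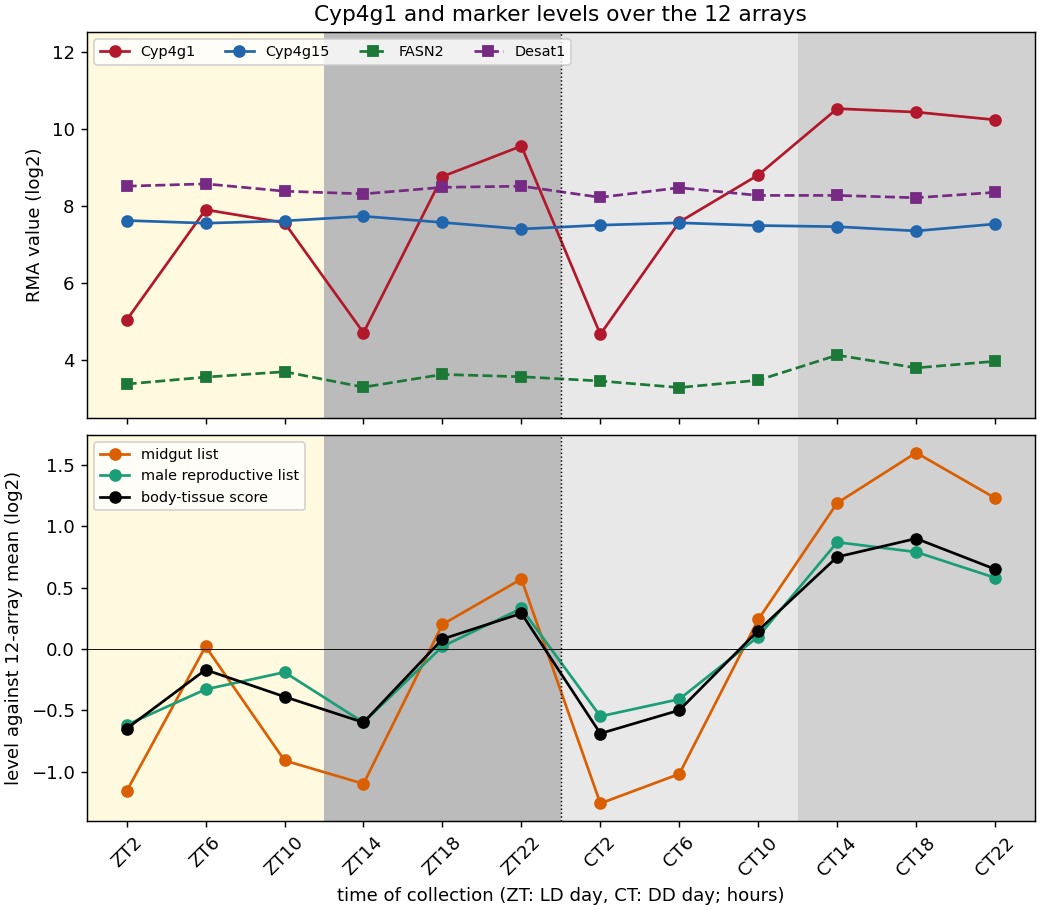
Upper panel: Cyp4g1, Cyp4g15 and the oenocyte genes FASN2 and Desat1 (RMA value, log2) on the 12 arrays in order of collection. Lower panel: the levels of the midgut and male reproductive lists and the body-tissue score on the same arrays, as log2 deviations from the 12-array mean, with the lowest score at CT2 (−0.69) and the highest at CT18 (0.90), against 4.67 and 10.43 for Cyp4g1.

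In constant darkness, Cyp4g1 was 10.4-fold lower in subjective day than in subjective night. This log2 difference of −3.38 (SE 1.104) did not pass limma's test over all probe sets (adjusted p = 0.242), although the groups did not overlap. Because the fit shares its spread among the 4 groups, the wide LD groups enter this error. With the 6 DD arrays alone the adjusted p was 0.0619. With the body-tissue score as a covariate the difference became 2.08, of the opposite sign (limma adjusted p = 0.998). LD dark was 6.59-fold lower than DD subjective night (log2 difference −2.72, SE 1.104, limma adjusted p = 0.411). In that comparison too the groups did not overlap, and the covariate turned the sign, to 1.41.

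Over the 12 arrays, Cyp4g1 followed the body-tissue score with a Pearson r of 0.93 (permutation p = 7e-05) and a Spearman rho of 0.98 (permutation p = 1e-05, the smallest that 100000 permutations can give). Adjusted over all 13966 probe sets, these were 0.0053 and 0.0017. Without CT18 and CT14, the arrays farthest from the median score, r was 0.92. Within the LD day it was 0.95 and within the DD day 0.94 (n = 6 each). The arrays are a time series, and the permutation treats them as exchangeable. Of the lists in the score, r was 0.92 with the midgut, 0.93 with the male reproductive list and 0.82 with thorax muscle, for which it was 0.47 within LD and 0.96 within DD. It was 0.71 with 4 Malpighian tubule genes, −0.21 with the head list and −0.25 with the head fat body list. With 10 female germline and follicle genes, a body list that is not in the score, it was −0.04 (−0.32 within LD and 0.11 within DD). The score therefore does not stand for all body tissue. The log2 difference between 3′ and 5′ control probe sets, a sign of RNA integrity, was 2.9 to 3.7 for eIF-4A and 2.1 to 2.58 for GAPDH, highest for both at ZT14, and had an r with Cyp4g1 of −0.55 and −0.44. The part of body tissue or RNA quality in the level of Cyp4g1 was not tested beyond these values.

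The oenocyte list, taken as the median of its 5 genes' deviations, did not share this profile. Cyp4g1 had an r of 0.08 with the level of this list over the 12 arrays. Of the 5 genes, 1 had a mean below the lower quartile and 2 had a mean above the median. The list can therefore say little on whether oenocyte transcripts in general changed. The summed level of the 5 genes ran from 8.60 to 8.77 in LD light, 8.52 to 8.69 in LD dark, 8.45 to 8.66 in DD subjective day and 8.47 to 8.57 in DD subjective night. Most of this sum is Desat1, with a mean of 8.38, as the other genes had means of 4.38 or less. FASN2, an oenocyte fatty acid synthase, was the exception: it ranged from 3.29 to 4.13 and was lower in DD subjective day than in subjective night (log2 difference −0.56, SE 0.107, limma adjusted p = 0.0162). Its r with the body-tissue score was 0.82. With the score or a linear trend over collection hours as a covariate, no probe set kept a call in this comparison, FASN2 included. FarO, an oenocyte reductase, ranged from 3.46 to 3.99, the elongase eloF from 2.23 to 2.87 and the desaturases Fad2 and Desat1 from 4.21 to 4.54 and from 8.21 to 8.57. Among the 10842 other named genes, the 5 most like Cyp4g1 by Pearson r over 12 arrays were Mst57Da (0.99), CG18628 (0.98), EbpII (0.98), Ebp (0.96) and Acp95EF (0.96). EbpII and Acp95EF are on the male reproductive list. These genes share their arrays with Cyp4g1 and nothing is drawn from the likeness.

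None of the 80 other P450 genes had a relation with the body-tissue score that passed after adjustment. Of all 81, 1 passed after adjustment, Cyp4g1, and 7, or 8.64%, had an unadjusted permutation p under 0.05 for r. Over all probe sets 2.24% passed after adjustment and 10.9% had an unadjusted p under 0.05. The median r with the score was 0.01 over the P450 genes and −0.07 over all probe sets. The next highest were Cyp6w1 at 0.62, Cyp6a8 at 0.59, Cyp312a1 at 0.58 and Cyp4ad1 at 0.56. The lowest was Cyp4g15 at −0.72, followed by Cyp4d20 at −0.71, Cyp303a1 at −0.68, Cyp12d1-d at −0.64 and Cyp6g2 at −0.58. Cyp4g15, the closest relative of Cyp4g1 in this genome and known from the nervous system, thus lay at the opposite end. Its own range was 0.38: it was 7.62, 7.55 and 7.61 in LD light, 7.73, 7.57 and 7.40 in LD dark, 7.50, 7.56 and 7.49 in subjective day and 7.46, 7.35 and 7.53 in subjective night. Its slope was −0.13 per unit of score, against 3.55 for Cyp4g1.

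Within the light-dark cycle, LD light was compared with LD dark. The light arrays were the earlier hours of that day, so light, hour and order of collection cannot be told apart here. No P450 gene passed limma's adjusted threshold, against 0.0286% of all probe sets (4 of 13966). At an unadjusted p under 0.05 there were 9 P450 genes, or 11.1%, against 7.12% of all probe sets. Of these 9, 7 were lower in light, as were 521 of the 994 probe sets at that p. Set against all genes, this was 7 of 81 P450 genes and 521 of 13966 probe sets (3.73%). The median P450 difference was −0.017, against 0.009 over all probe sets. The median standard error of a P450 difference was 0.081. The smallest P450 adjusted p was 0.329.

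Cyp6a20, which is linked to male aggression in this species, came closest. It was 6.02, 5.78 and 6.0 in LD light and 6.17, 6.28 and 6.31 in LD dark. All dark arrays lay above all light arrays, and the difference was −0.32 (SE 0.075, limma adjusted p = 0.329). It was −0.19 with a linear trend over collection hours in the fit. In DD the same gene was 6.03, 6.10 and 6.15 in subjective day and 5.95, 6.01 and 6.08 in subjective night, and those groups overlapped. Cyp6a9, its neighbour in the genome, was 5.92, 5.80 and 5.89 in LD light and 6.02, 6.31 and 6.39 in LD dark. Those groups did not overlap either (difference −0.37, SE 0.107, limma adjusted p = 0.487). Cyp6d5 was 8.98, 8.83 and 9.11 in LD light and 9.15, 9.52 and 9.24 in LD dark, again with no overlap (−0.33, SE 0.099, limma adjusted p = 0.505). Cyp313a1, of the CYP4 clan, was 7.51, 7.57 and 7.41 in LD light and 7.70, 7.69 and 7.76 in LD dark. The groups were apart by −0.22 (SE 0.068, limma adjusted p = 0.556). Cyp313a3 went the other way, at 2.78, 2.90 and 3.04 in light and 2.70, 2.74 and 2.70 in dark (0.19, SE 0.069, limma adjusted p = 0.607). With the linear trend its difference was 0.33. It lay near the lower quartile of the arrays. Groups of 3 arrays can lie apart without a change. The share of all probe sets whose groups do not overlap is not given here. Nothing is therefore read from a lack of overlap in any comparison.

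**Figure D4:**
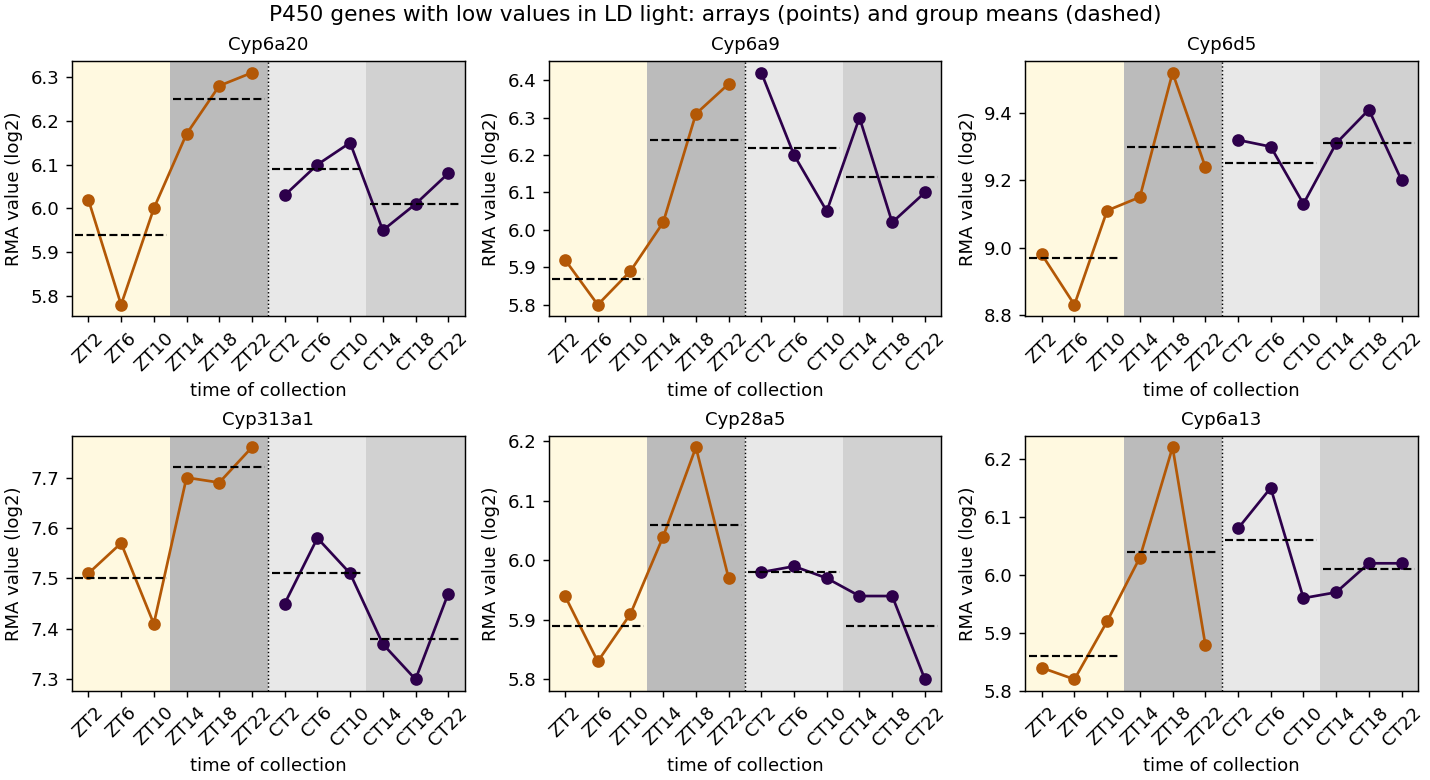
RMA values (log2) of Cyp6a20, Cyp6a9, Cyp6d5, Cyp313a1, Cyp28a5 and Cyp6a13 on the 12 arrays (points, LD day then DD day) with group means (dashed). In Cyp6a20 all LD light arrays lie below all LD dark arrays, with means of 5.94 and 6.25, and in Cyp6a13 these groups overlap.

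The 24 h harmonic of the LD day had its smallest p-values among P450 genes for Cyp6a20, Cyp6d5 and Cyp6a9. It is a cosine and a sine term fitted to the 6 times of a day, and amplitude is the distance from mean to peak. After adjustment 0 P450 genes passed, against 0.0644% of all probe sets. There were 14 at an unadjusted p under 0.05, or 17.3%, against 8.94% of all probe sets. Cyp6a20 had an amplitude of 0.25 (SE 0.048, limma adjusted p = 0.191) with its peak at 18.7 h after lights on. Cyp6d5 had 0.28 (SE 0.060, limma adjusted p = 0.231) with its peak at 17.8 h, and Cyp6a9 had 0.29 (SE 0.070, limma adjusted p = 0.303) with its peak at 19.5 h. Cyp4ac2 (0.18) and Cyp4d1 (0.19) peaked near lights on, at 0.9 and 3.2 h, and without ZT14 the amplitude of Cyp4d1 was 0.12. Of the 14 genes, 9 peaked between 16 and 21 h, or 64.3%. Of all probe sets at that p, 328 of 1249 did, or 26.3%. Among those 9 P450 genes 8 were of the CYP3 clan, which holds 37 of the 81 measured. In DD the 9 genes had amplitudes of 0.04 to 0.16, and 0 had an unadjusted limma p under 0.05. The 9 genes were picked for their LD p-values, so lower amplitudes in DD can follow from that choice alone, and nothing is read from them. The window of 16 to 21 h was chosen after the values were seen, and no test was run on it.

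Subjective day and subjective night were compared within the day in constant darkness. The night arrays were the later hours of that day, so hour, time spent in darkness and order of collection cannot be told apart here. Of the P450 genes, 0 passed limma's adjusted threshold, against 1.39% of all probe sets. There were 5 at an unadjusted p under 0.05, or 6.17%, against 9.04% of all probe sets. The median P450 difference was 0.015, against 0.003 over all probe sets. Cyp4ac2 had the smallest p. It was 3.56, 3.74 and 3.55 in subjective day and 3.27, 3.29 and 3.35 in subjective night, with no overlap (0.31, SE 0.093, limma adjusted p = 0.163). Cyp12d1-d was 2.35, 2.21 and 2.29 in subjective day and 2.03, 2.07 and 2.03 in subjective night (0.24, SE 0.078, limma adjusted p = 0.229). It lies below the lower quartile on every array, and its near-identical copy Cyp12d1-p could share its probes. Cyp303a1, also called nompH and needed for external sensory organs, was 4.25, 4.13 and 4.06 in subjective day and 3.88, 4.01 and 3.87 in subjective night (0.23, SE 0.088, limma adjusted p = 0.379). Cyp4p3 had a difference of −0.17 (SE 0.080, limma adjusted p = 0.542). The body-tissue score was highest in these night arrays, and within DD its r (n = 6) was −0.89 with Cyp4ac2, −0.88 with Cyp303a1, −0.86 with Cyp12d1-d and 0.84 with Cyp4p3. With the score as a covariate the differences were 0.37, 0.11, 0.26 and −0.03 in that order, and with a linear trend over collection hours that of Cyp303a1 was 0.01. The part of body tissue in these differences was not tested beyond these values.

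The harmonic of the DD day gave a like picture, with 0 P450 genes past the adjusted threshold, against 0.78% of all probe sets. At an unadjusted p under 0.05 there were 7, or 8.64%, against 11% of all probe sets. Cyp4ac2 again came closest, with an amplitude of 0.23 (SE 0.046) and a peak at 5.6 h (limma adjusted p = 0.0794). It passed under 2 of the 19 alternatives, over which the adjusted p ran from 0.0459 to 0.782. In LD the peak of Cyp4ac2 lay at 0.9 h. Cyp9b1 had 0.21 (SE 0.051, peak 11.7 h, limma adjusted p = 0.181), Cyp6a18 had 0.21 (SE 0.060, peak 11 h, limma adjusted p = 0.302) and Cyp312a1 had 0.17 (SE 0.055, peak 14.8 h, limma adjusted p = 0.391). Cyp4g1 had 2.51 (SE 0.795, peak 16 h, limma adjusted p = 0.364), which was 1.56 without CT2 and 1.32 with a linear trend.

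Light against darkness at the same hours was compared between LD light and DD subjective day. The LD day always came first, so lighting, day of collection and age cannot be told apart here or in the next comparisons. These comparisons also share arrays with the ones above. No P450 gene passed limma's adjusted threshold, nor did any of all probe sets (0%). At an unadjusted p under 0.05 there were 7, or 8.64%, against 7.51% of all probe sets. Cyp6a9 was 5.92, 5.80 and 5.89 in light and 6.42, 6.20 and 6.05 in subjective day, with no overlap (−0.35, SE 0.107, limma adjusted p = 0.431). Cyp6d5 was 8.98, 8.83 and 9.11 in light and 9.32, 9.30 and 9.13 in subjective day, with no overlap (−0.28, SE 0.099, limma adjusted p = 0.520). Cyp6a13 differed by −0.21 (SE 0.083, limma adjusted p = 0.601) without overlap. The low-lying Cyp4d14 (0.22, limma adjusted p = 0.498, overlapping) and Cyp6a14 (0.18, limma adjusted p = 0.615) were higher in light.

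The nights of both days were compared between LD dark and DD subjective night. In this comparison 0 P450 genes passed limma's adjusted threshold, against 0.2% of all probe sets (28 of 13966). At an unadjusted p under 0.05 there were 9, or 11.1%, against 9.7% of all probe sets. Cyp313a1 fell just short. It was 7.70, 7.69 and 7.76 in LD dark and 7.37, 7.30 and 7.47 in DD subjective night, with no overlap (0.34, SE 0.068, limma adjusted p = 0.0598). It passed under 4 of 20 alternatives, over which the difference ran from 0.30 to 0.38 and the adjusted p from 0.0465 to 0.711. Those 4 include leaving out CT2 (0.0492) and leaving out CT10 (0.0488). Cyp4d21, also called sxe1, is a sex-specific enzyme of the male head fat body. It was 6.38, 6.46 and 6.68 in LD dark and 6.02, 6.05 and 6.28 in DD subjective night, with no overlap (0.39, SE 0.114, limma adjusted p = 0.204). With hour of day as a block its adjusted p was 0.0439, over a range of 0.0439 to 0.643. Cyp6a20 differed by 0.24 (SE 0.075, limma adjusted p = 0.234) and Cyp28a5 by 0.17 (SE 0.070, limma adjusted p = 0.411), both without overlap. Without ZT18 the difference of Cyp28a5 was 0.11. Every subjective-night array also had a higher body-tissue score than every LD dark array. The score had an r with Cyp313a1 of 0.57 within LD and −0.69 within DD (n = 6 each). With Cyp4d21 these were 0.89 and 0.01. The part of body tissue in the differences between the nights was not tested beyond these values.

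**Figure D5:**
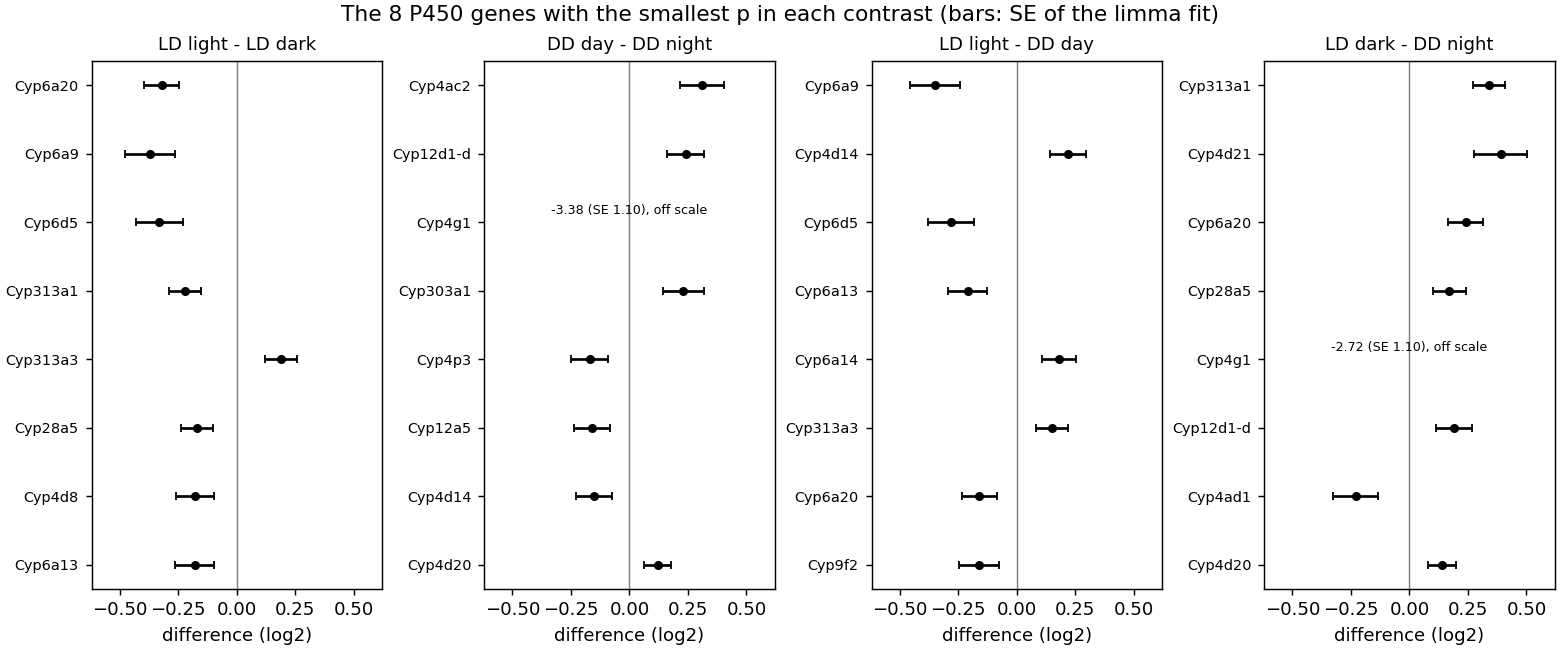
Differences (log2, points) with the standard error of the limma fit (bars) for the 8 P450 genes of smallest p in each of 4 contrasts. Cyp4g1 lies off the scale at −3.38 in the DD panel and −2.72 in the panel of the nights, and Cyp313a1 at 0.34 in the latter has the smallest adjusted p (0.0598).

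Whole days were then set against each other, LD minus DD. No P450 gene passed limma's adjusted threshold, against 0.0215% of all probe sets. There were 4 at an unadjusted p under 0.05, or 4.94%, against 10.8% of all probe sets. They were Cyp4d21 (0.27, SE 0.081, limma adjusted p = 0.246), Cyp313a1 (0.16, SE 0.048, limma adjusted p = 0.242), Cyp12a4 (−0.14, SE 0.051, limma adjusted p = 0.330) and Cyp6g1 (−0.17, SE 0.077, limma adjusted p = 0.439). Cyp312a1 came next (−0.14, SE 0.066, limma adjusted p = 0.478). With the body-tissue score as a covariate the differences of Cyp6g1 and Cyp312a1 were −0.10 and −0.08. Without ZT14 that of Cyp6g1 was −0.11, and without CT10 that of Cyp312a1 was −0.08. Cyp12a4, a mitochondrial P450 linked to resistance to the insecticide lufenuron, was 6.78, 6.63 and 6.65 in LD light, 6.67, 6.80 and 6.71 in LD dark, 6.88, 6.87 and 6.68 in subjective day and 6.95, 6.84 and 6.87 in subjective night. The LD and DD arrays overlapped, through CT10.

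The day-night difference in LD was finally tested against that in DD. No P450 gene passed limma's adjusted threshold, nor did any of all probe sets (0%). At an unadjusted p under 0.05 there were 5, or 6.17%, against 7.34% of all probe sets. Cyp6a20 had −0.40 (SE 0.106, limma adjusted p = 0.360), Cyp313a1 −0.35 (SE 0.096, limma adjusted p = 0.380) and Cyp6a9 −0.45 (SE 0.151, limma adjusted p = 0.518). Cyp28a5 had −0.26 (SE 0.099, limma adjusted p = 0.578) and Cyp4d14 0.26 (SE 0.108, limma adjusted p = 0.622), which was 0.16 with the score as a covariate. The median standard error was 0.115. The low values of Cyp6a20, Cyp6a9 and Cyp313a1 in light, relative to the dark hours of their own day, were thus not shown to differ between the days.

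Among genes grouped by role, the 8 insecticide-linked ones had ranges from 0.14 (Cyp6a2) to 0.93 (Cyp6a8), and 3 of them, Cyp6a8, Cyp6w1 and Cyp6g1, were among the 10 P450 genes of largest range. Cyp6a8 was between 6.12 and 6.53 on 10 arrays, 6.76 at ZT22 and 7.04 at CT18. Cyp6w1 was highest on the same CT18 array, at 8.12, and between 7.45 and 7.90 on the others. Cyp6g1, known for DDT resistance, was lowest at ZT14 (5.97) and ZT10 (5.99) and highest at CT14 (6.56). Cyp6g2 and Cyp6t3, next to it in the genome, had ranges of 0.15 and 0.29. Cyp18a1, which inactivates ecdysteroids, was between 5.5 and 5.8. Of the genes listed for behaviour or the nervous system, Cyp6a17 (temperature preference) was below the lower quartile on every array, Cyp6a22 had a range of 0.35 and Cyp6a23 a range of 0.59. None of these passed in any of the 8 comparisons.

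Of 28 listed pathway genes that were measured and are not members, 0 passed limma's adjusted threshold in any of the 8 comparisons, against 0% to 1.39% of all probe sets. From 0 to 2 of them per comparison had an unadjusted p under 0.05, against 7.12% to 11% of all probe sets. At such shares a list of this size would hold few such genes, and nothing is read from the counts. The 4 ecdysteroid P450s known by other symbols were dib (range 3.16 to 3.56), sad (5.5 to 5.76), shd (2.71 to 2.96) and spo (1.46 to 1.94). The smallest adjusted p of the 28 genes was 0.242, for dib in LD against DD (difference 0.20 in limma). The electron donors Cyt-b5 (7.12 to 7.51), Fdx1 (5.42 to 5.65) and Fdx2 (6.08 to 6.40) and the cytochrome b5-related gene Cyt-b5-r (9.28 to 9.74) had ranges of 0.23 to 0.45. Alas, which starts heme synthesis, lay between 7.58 and 7.87, and FeCH, which ends it, between 5.44 and 5.69. Of 11 regulators, the widest was Pdp1 (5.88 to 6.44), a transcription factor of the clock's second loop, and Hr96, a xenobiotic receptor, lay between 1.83 and 2.21. The cyclophilins Cyp1 (9.61 to 9.92) and Cyp40 (2.42 to 2.83) passed in no comparison either. The smallest unadjusted p of the pair was 0.0521, for Cyp40 in LD light against DD subjective day (limma adjusted p = 0.668).

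Many P450 genes lie in rows along the chromosomes. By the gene order of the RefSeq table (Release 6 plus ISO1 MT), 43 P450 genes lie in 15 runs of direct neighbours, and 42 of them were measured. The longest run holds 9 genes: Cyp6a22, Cyp6a17, Cyp6a23, Cyp6a19, Cyp6a9, Cyp6a20, Cyp6a21, Cyp6a8 and Cyp317a1. Over 12 arrays, 27 neighbour pairs had a median r of −0.04, against 0.01 over all 3240 P450 pairs. The highest were 0.72 for Cyp6a21 with Cyp6a8, 0.66 for Cyp309a1 with Cyp309a2 and 0.57 for Cyp6a9 with Cyp6a20. The lowest were −0.73 for Cyp6a14 with Cyp6a13 and −0.72 for Cyp4p2 with Cyp4p1. All pairs share the arrays and their normalization, and close copies may share probes, which was not tested. For 4 genes a further probe set allowed a check: its r with the one used was 0.88 for Cyp9f2 and 0.26 for Cyp49a1. It was −0.23 for Cyp9b2, whose probe sets had means of 8.28 and 4.86, and −0.29 for Cyp318a1. The probe sets of these 3 thus did not track each other, and none of the 3 is among the genes of smallest p named above.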

How the data were processed

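RNA of 12 head samples was measured on 1-colour Affymetrix DrosGenome1 arrays. The values deposited by the authors are on the log2 scale and come from RMA, which the submitters' processing notes name. This method corrects background, normalizes arrays by quantiles and summarises probes. Neither its version nor the array set used is given in the sources here. Quantile normalization can shrink shifts shared by many genes. There is no read depth, and the number of arrays limits precision. Of 14010 probe sets, 44 controls were left out, 13966 were tested and 12442 had 1 symbol.

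Group means (8 residual degrees of freedom) and 24 h harmonics (6) were fitted to all arrays with limma 3.58.1 in R 4.3.3, two-sided. P-values were adjusted by Benjamini-Hochberg over all probe sets, with a threshold of 0.05. The 3 arrays of a group are different hours, not replicates, so p-values reflect only the spread between these samples. The relation with the body-tissue score used 100000 permutations. The fits were also run on simulated arrays with known changes and independent noise. Such noise lacks the variation that many genes share in these arrays, so the run checks the computation and not the calls made here.

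The members, lists and tests were chosen with earlier results of these data known. Named were the 5 P450 genes of smallest p in each comparison, the 10 highest and 5 lowest means, the 10 largest ranges, the 5 highest and 5 lowest correlations with the score, and the role lists. Other normalizations, priors, weights, array subsets, covariates and probe set choices were tried, and each array was left out in turn.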

Additional observations from a re-analysis of the deposited data

Results flagged for a closer look

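Cyp28a5 was flagged for a day-night difference that ran in opposite directions on the 2 days. This is not particular to it. Among other genes, Cyp6a20 had −0.32 in LD and 0.08 in DD, Cyp6a9 −0.37 and 0.08, and Cyp313a1 −0.22 and 0.13. The DD groups of these genes overlapped, and those of Cyp28a5 did not, but nothing is read from a lack of overlap. The arrays of Cyp28a5 are given here. It was 5.94, 5.83 and 5.91 in LD light and 6.04, 6.19 and 5.97 in LD dark, so every light array was below every dark array. It was 5.98, 5.99 and 5.97 in DD subjective day and 5.94, 5.94 and 5.80 in DD subjective night, so every day array was above every night array. The difference between the days was −0.26 (SE 0.099) and did not pass limma's test over all probe sets (adjusted p = 0.578). Over the 19 alternatives its value ran from −0.31 to −0.20 and its adjusted p from 0.379 to 0.954. No group holds 4 or more arrays, so single arrays were not tested as outliers.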

How the results depend on the processing

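The counts of P450 genes past the threshold in the 8 comparisons were 0, and 159 of their alternatives kept 0. The other 7 gave 1. In LD dark against DD subjective night these were Cyp313a1 after quantile normalization was run again (limma adjusted p = 0.0465), after median centring (0.0498) and without CT2 (0.0492) or CT10 (0.0488), and Cyp4d21 with hour of day as a block (0.0439). Leaving out each array thus gave 0 to 1 there and 0 in the other comparisons. In the DD harmonic it was Cyp4ac2 after quantile normalization (0.0482) and median centring (0.0459). The 40 differences and amplitudes of named genes had 776 alternatives. Of these, 766 kept their direction and side of the threshold, and 7 passed it, as above. The other 3 reversed, all for Cyp4g1: subjective day against subjective night became 2.08 with the body-tissue score as a covariate and 0.83 with a linear trend over collection hours, and LD dark against DD subjective night became 1.41 with the score. The score was higher on the 3 subjective-night arrays than on any other, and the cause was not tested. Without CT2 the first difference was −2.20 and without ZT14 the second was −1.24, both with limma adjusted p above the threshold (0.611 and 0.760). No paired analysis by replicate was possible because the labels number no replicates; hour of day as a block paired the same hours of the 2 days. With 1 array per time, the median standard error of a P450 difference between 2 groups was 0.081.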
